A study of Mus musculus with 24 samples.

Results

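The regions described here are the nucleolus-associated domains (NADs) that lie on mouse chromosomes 12, 16, 18 and 19, the chromosomes that carry ribosomal RNA (rRNA) genes. They were chosen by chromosome alone, separately in embryonic stem cells (ESCs) and in neural progenitor cells (NPCs), and the rule uses no measured value, although earlier results of these data were known when it was set. In ESCs they numbered 253 of the 1769 NADs of the deposited list, with 79 on chromosome 12, 64 on chromosome 16, 64 on chromosome 18 and 46 on chromosome 19. In NPCs they numbered 203 of 1447, with 62, 46, 59 and 36 on the same chromosomes.

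NADs were mapped by Nucleolar-DamID, which reads the marks left on GATC sites by Dam, an adenine methyltransferase of bacteria, when a fusion with histone H2B and a nucleolar localization signal carries it to the nucleolus (H2B-Dam-NoLS). The fusion without the signal (H2B-Dam) was the control, and each cell type had 2 samples of each. Both transgenes stood heterozygous in the Rosa26 locus of male E14 ESCs, as lines grown from single cells, under a minimal heat shock promoter with Tet operators, and carried a destabilization domain. In both cell types expression was switched on by doxycycline at 100 ng/ml, together with Shield1 at 1 µM, which stabilizes the fusion, and lasted 15 h. NPCs came from day 8 of the differentiation, and had received retinoic acid at 2 µM during its last 4 days. RNAseq was measured in 3 ESC and 3 NPC samples. The labels name no batch that both cell types share, so effects of batch and of cell type cannot be told apart.

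The nucleolus forms around active arrays of rRNA genes, where RNA polymerase I makes the precursor of the ribosomal RNAs. In the mouse these arrays lie next to the centromere, at the start of the chromosome as it is numbered, and which chromosomes carry them varies between strains. The edge of the nucleolus is a meeting place of inactive chromatin, and NADs in many cell types are poor in genes and low in transcription. A chromosome that carries an rRNA gene array is anchored to the nucleolus at that end, which raises the question whether its NADs are more extensive, longer or nearer the centromere than those of other chromosomes.

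Each NAD had 1 score from the authors, a normalized signal of H2B-Dam-NoLS over H2B-Dam on the authors' scale, given once for both replicates. No NAD had replicate values, so no value of a NAD carries a replicate error and the depth behind it is unknown. Normalization was done separately for ESCs and NPCs, and scores are therefore compared within a list or by rank. NADs were called at a resolution of 100 kb, and their borders follow that grid. All 506 borders in ESCs and all 406 in NPCs lay at a GATC site, and 91.5% and 91.6% of them were within 1 kb of a multiple of 100 kb.

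NADs covered 37.0% of chromosome 12, 27.2% of chromosome 16, 42.7% of chromosome 18 and 36.3% of chromosome 19 in ESCs, and 29.8%, 27.6%, 28.0% and 22.3% in NPCs. Chromosome 18 ranked 1 of the 19 autosomes in ESCs and 7 in NPCs, and chromosome 16 ranked 14 and 8. The covered length was 132 Mb in ESCs and 102 Mb in NPCs over the 4 chromosomes. From ESCs to NPCs coverage changed by -14.7 points on chromosome 18, -14.0 on chromosome 19 and -7.25 on chromosome 12, and by 0.333 points on chromosome 16. Chromosome 16 thus had a similar covered share in both cell types, while the other 3 had less in NPCs. The covered bases were not the same, since 59.4% of its ESC and 58.7% of its NPC bases were shared.

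None of 17 measures that set the 4 chromosomes against the other 15 autosomes passed correction. Coverage in ESCs had a mean of 35.8% ± 6.38 (SD, n = 4) on the rRNA gene chromosomes and 30.7% ± 5.34 (SD, n = 15) on the others, a difference of 5.13 points (exact permutation over the 19 autosomes, two-sided, p = 0.114, adjusted p = 0.388). It was 0.150 points (exact permutation p = 0.967) when NADs below the median score were left out. Without chromosome 18 it was 2.84 (exact permutation p = 0.434). Without chromosome 16 it was 7.98 (exact permutation p = 0.0172, adjusted p = 0.167). In NPCs the difference was -1.65 points (exact permutation p = 0.818). That became 1.85 points without chromosome 8, on which NADs covered 77.6% in NPCs, -7.46 without NADs below the median score, -2.70 without chromosomes 11 and 15, -2.61 without chromosome 12 and -0.105 without chromosome 19. NADs of ESCs had a median length of about 300.0 kb on each of the 4 chromosomes, against a mean of 244 kb ± 49.2 (SD, n = 15) on the others, and this was the lowest p for ESCs (exact permutation p = 0.0531, adjusted p = 0.388). Among the others, chromosomes 1, 2, 10, 11, 13 and 14 also had ESC medians of about 300.0 kb. The difference of 56.3 kb shrank to 14.3 kb (exact permutation p = 0.900) without NADs below the median score. It was 56.6 kb without chromosome 12 (exact permutation p = 0.0172, adjusted p = 0.292). In NPCs the difference in median length had the opposite sign, at -51.7 kb (exact permutation p = 0.168), which was -7.74 kb without NADs below the median score and -22.6 kb without chromosome 19. The smallest p that the choices of 4 of 19 autosomes allow is 0.000516.

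Coverage near the centromere, where the rRNA genes lie, depends on how the undetermined sequence is counted. The assembly opens each chromosome with 3 Mb of undetermined sequence that can hold no NAD, and does not contain the arrays. Over whole chromosome lengths the excess of the fifth nearest the centromere over the rest was -8.76 points ± 10.3 (SD, n = 4) in ESCs and -7.69 ± 12.6 (SD, n = 4) in NPCs. Chromosome 18 was the exception, with an excess of 3.47 points in ESCs and 9.82 in NPCs. On the other autosomes it was 2.63 ± 11.96 (SD, n = 15) and 8.10 ± 15.8 (SD, n = 15). The differences of -11.4 and -15.8 points did not pass correction (exact permutation p = 0.0965 and 0.0769, adjusted p = 0.388 for both), and their sign turned when NADs below the median score were left out, to 2.63 and 1.36 points. In ESCs the difference was -7.28 without chromosome 19 and -6.43 over the first 10 Mb of determined sequence. Without chromosome 18 it was -15.5 in ESCs and -21.6 in NPCs (exact permutation p = 0.0417 and 0.0147, adjusted p = 0.354 and 0.250). With undetermined bases left out and the 5 parts cut from the first determined base, the mean excess was -0.934 points in ESCs and -0.304 in NPCs on the 4 chromosomes, against 7.37 and 12.7 on the others (differences of -8.30 and -13.0, exact permutation p = 0.255 and 0.164).

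Spacing, score, sharing, sequence and gene density were compared in the same way. The median gap between neighbouring NADs differed by -11.3 kb in ESCs (exact permutation p = 0.737; -521.8 kb and p = 0.0578 without NADs below the median score) and 48.7 kb in NPCs (p = 0.649), and the median score by 0.000989 (p = 0.550) and -0.00225 (p = 0.685). The share of NAD bases found in NADs of the other cell type differed by -2.81 points in ESCs (exact permutation p = 0.801) and 5.79 points in NPCs (p = 0.431). In ESCs it was -9.62 points without NADs below the median score, and it turned to 0.0857 without chromosome 8 and to 0.683 without chromosome 19. GATC sites per kb inside minus outside NADs differed by -0.0122 in ESCs (exact permutation p = 0.575) and 0.00113 in NPCs (p = 0.945). Genes per Mb, counted inside minus outside NADs, were -1.66 on the rRNA gene chromosomes against -3.07 on the others in ESCs (exact permutation p = 0.285) and -1.94 against -4.18 in NPCs (p = 0.0542). The ESC difference of 1.42 was 0.876 without chromosomes 11 and 15, and without NADs below the median score the ESC values were 1.08 and -0.476. In NPCs the difference was 2.82 without chromosome 16 (exact permutation p = 0.0196, adjusted p = 0.167). Without NADs below the median score it was 2.66 in NPCs (exact permutation p = 0.0284, adjusted p = 0.482). The change in coverage from ESCs to NPCs differed by -6.77 points (exact permutation p = 0.310). Chromosome 8, whose short gaps in NPCs raise a doubt whether it was called like the others, weighed on these values. Without it the difference was -2.47 points for the coverage change, 3.96 kb for the NPC gap, -0.000436 for the NPC score and 2.93 points for NPC sharing. Adjusted p-values of the 17 measures lay between 0.388 and 0.945.

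NADs of the 4 chromosomes were mostly short, and a few long ones held about as many bases as all others. In ESCs 86 of 253 (34.0%) spanned 1 bin of 100 kb, and the 37 of at least 1 Mb held 49.5% of the bases. In NPCs 84 of 203 (41.4%) spanned 1 bin and 27 of at least 1 Mb held 50.2%. Longer NADs had lower scores: NADs of 1 bin had a median score of 0.0314 in ESCs and 0.0455 in NPCs, those of 2 to 9 bins 0.0264 and 0.0396, and those of 10 bins or more 0.0226 and 0.0386. Spearman's correlation of score and length, as a description over NADs that share a list, was -0.250 in ESCs (n = 253) and -0.253 in NPCs (n = 203). The chromosomes differed in it, from 0.00165 on chromosome 16 to -0.508 on chromosome 19 in ESCs.

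Gaps had a floor. The shortest gap of the 4 chromosomes was 296 kb in ESCs and 300.1 kb in NPCs, and no gap on another chromosome lay under 290 kb either, except 77 of the 99 gaps of chromosome 8 in NPCs, of which the shortest was 3.16 kb. Median gaps were 550.1, 698.9, 599.8 and 600.5 kb on chromosomes 12, 16, 18 and 19 in ESCs, and 699.8, 900.4, 798.9 and 702 kb in NPCs. Gaps of at least 1 Mb numbered 59 of 249 in ESCs and 80 of 199 in NPCs, so NPC NADs stood farther apart on each chromosome.

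Chromosome 12 was most covered between 24.0 and 72.1 Mb. Cut into 5 equal parts from the centromere on, it was covered over 27.9%, 55.8%, 49.5%, 36.2% and 15.8% in ESCs and 14.6%, 47.2%, 51.4%, 23.7% and 12.1% in NPCs. The fullest window of 10 Mb lay from 32.8 to 42.8 Mb in ESCs, with 83.0% covered, and from 42.7 to 52.7 Mb in NPCs, with 88.0%. NPCs had no NAD base from 17.1 to 27.1 Mb. The median score was 0.0259 in ESCs and 0.0409 in NPCs, and 57.3% of the ESC bases and 71.3% of the NPC bases were shared.

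The longest NAD of the 4 chromosomes lay here in both cell types. In ESCs it ran from 61599985 to 67499335, 5.90 Mb with a score of 0.0227, and 67.8% of it lay in 3 NPC NADs. It started within Lrfn5, a synaptic adhesion gene, and held Prpf39, a splicing factor. In NPCs the longest ran from 45399772 to 50899770, 5.50 Mb with a score of 0.0386, and 49.1% of it was shared with 5 ESC NADs. It held Nova1, a neuronal splicing regulator, and Prkd1, a protein kinase, neither of which passed the expression filter.

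Chromosome 12 also had the highest score of the 4 chromosomes in ESCs, 0.139 (rank 6 of 1769), at a NAD of 1 bin from 16899745 to 17000068 that overlapped Pqlc3. An NPC NAD had the same borders and a score of 0.116 (rank 27 of 1447). In NPCs the longest gap of the 4 chromosomes, 10.7 Mb, followed it, up to 27700145. That gap held Rrm2, Odc1, Id2 and Sox11, named after their values were seen, and ESC NADs covered 5.59% of it. In ESCs the longest gap, 7.50 Mb from 108799604 to 116299978, lay between a NAD at the transcription factor Yy1 and one at Ncapg2, a condensin subunit. It held Dlk1 and the other members of the imprinted Dlk1-Dio3 list on these chromosomes, 3 genes of which 0 lay in a NAD.

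At its ends chromosome 12 had NADs close to the determined sequence. The first ESC NAD, from 3199684 to 3701167, began 199.7 kb after the first determined base, and the NPC one, from 3100573 to 3699928, 100.6 kb after it. Both held Rab10, a small GTPase, Asxl2, Kif3c and Dtnb. The last NADs ended 29.5 and 28.8 kb before the last determined base, and held Tmem196, with Sp8 and Itgb8 in the longer NPC NAD. The longest ESC NAD without an NPC counterpart, from 75499881 to 76101193, held Syne2, a nuclear envelope protein that ties the nucleus to the cytoskeleton. In NPCs the highest score of the chromosome, 0.130, lay from 102799914 to 102900086 at Btbd7 and Cox8c, and the longest NAD without ESC overlap, from 109100156 to 109300005, held no gene of the RNAseq tables.

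Chromosome 16 was filled toward its middle and later parts, and its telomeric end was nearly empty in NPCs. The 5 equal parts were covered over 22.5%, 27.3%, 33.1%, 35.1% and 18.3% in ESCs and 16.5%, 18.1%, 45.8%, 55.0% and 2.54% in NPCs. In the fifth nearest the telomere 8.29% of the ESC bases were shared. The fullest window of 10 Mb lay from 69.3 to 79.3 Mb in ESCs (53.0%) and from 65.4 to 75.4 Mb in NPCs (74.0%), the latter with 0.8 genes per Mb. The emptiest, from 86.3 to 96.3 Mb in ESCs, had 6.99% covered and 11.1 genes per Mb. The median score of the chromosome was 0.0230 in ESCs and 0.0413 in NPCs, and 59.4% of its ESC bases and 58.7% of its NPC bases were shared.

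The longest ESC NAD of chromosome 16, from 40398871 to 42299941 (1.90 Mb), joined the neuronal adhesion gene Lsamp and the axon growth gene Gap43, and 89.4% of it lay in 1 NPC NAD. In NPCs the longest, from 65300188 to 68399397 (3.10 Mb), was shared over 16.1% and held Chmp2b, a membrane remodelling protein, Vgll3, Cadm2, an adhesion molecule, and Pou1f1, a pituitary transcription factor. The highest scores of both cell types fell at 1 place, the scaffold gene Dlg1. The ESC NAD from 31699768 to 31899926 scored 0.114 (rank 13) and extended to Meltf, and the NPC NAD from 31699768 to 31800094 scored 0.176 (rank 2 of 1447). The lowest scores also shared a place: the ESC NAD from 13298246 to 13900344 scored 0.00397 (rank 1766 of 1769) and the NPC NAD from 13300215 to 13699940 scored 0.0100 (rank 1446 of 1447).

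The ends of chromosome 16 differed between the cell types. In ESCs a NAD at the olfactory receptor gene Olfr161 began at 3231577, directly after a run of undetermined bases that ended at 3231574, and it had no NPC counterpart. In NPCs the first NAD began 1100.2 kb after the first determined base, at the acetyltransferase gene Crebbp, from 4100178 to 4200716. The longest gaps followed the NAD at Crebbp in both cell types, 4.90 Mb in ESCs and 7.00 Mb in NPCs, and the NPC gap ended at a NAD with Rsl1d1, a nucleolar protein of ribosome biogenesis, and Gspt1, a translation termination factor. Toward the telomere the last ESC NAD, from 94300378 to 94499964 at Pigp and Ttc3, ended 3607.8 kb before the last determined base. The last NPC NAD, from 97999722 to 98100111, ended 7.66 kb before it. Longest among those without overlap were an ESC NAD at Gm21833, from 82300542 to 82899873, and an NPC NAD at Cblb, a ubiquitin ligase gene, from 51301160 to 52299429.

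The sequence at NAD borders shows the GATC sites at which NADs start and end, while the resolution is set by the bins of 100 kb. The borders of the longest ESC and NPC NADs of chromosomes 12 and 16 are printed below as 60 bases of the forward strand of GRCm38, with the GATC in capitals. None lay in an exon. The first, at chr12:61599955-61600014, lay within an intron of Lrfn5, and the second, at chr12:67499306-67499365, in no gene. The third and the fourth, at chr12:45399742-45399801 and chr12:50899741-50899800, lay in no gene and within Gm48779. On chromosome 16 the ESC borders, at chr16:40398841-40398900 and chr16:42299912-42299971, lay within introns of Lsamp and Gap43, and the NPC borders, at chr16:65300158-65300217 and chr16:68399368-68399427, in no gene. The first border was 16 bases from a multiple of 100 kb, with neighbouring GATC sites 387 bases before and 903 bases after it.
Start of the longest ESC NAD of chromosome 12: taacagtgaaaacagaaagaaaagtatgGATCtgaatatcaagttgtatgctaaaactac
End of the longest ESC NAD of chromosome 12: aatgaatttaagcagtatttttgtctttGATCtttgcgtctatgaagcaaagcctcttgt
Start of the longest NPC NAD of chromosome 12: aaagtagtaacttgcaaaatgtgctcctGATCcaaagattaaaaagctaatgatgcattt
End of the longest NPC NAD of chromosome 12: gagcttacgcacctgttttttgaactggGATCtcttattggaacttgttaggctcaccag
Start of the longest ESC NAD of chromosome 16: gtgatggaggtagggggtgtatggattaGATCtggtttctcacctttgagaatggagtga
End of the longest ESC NAD of chromosome 16: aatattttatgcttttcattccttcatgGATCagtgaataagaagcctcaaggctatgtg
Start of the longest NPC NAD of chromosome 16: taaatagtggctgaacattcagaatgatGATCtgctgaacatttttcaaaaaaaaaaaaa
End of the longest NPC NAD of chromosome 16: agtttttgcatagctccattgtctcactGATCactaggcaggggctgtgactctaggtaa

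Chromosome 19, the shortest of the 4, was most covered between 12.3 and 36.9 Mb. From the centromere on the 5 parts were covered over 19.4%, 59.3%, 52.8%, 23.1% and 26.8% in ESCs and 16.1%, 38.4%, 27.3%, 19.4% and 10.2% in NPCs. The fullest window of 10 Mb lay from 10.7 to 20.7 Mb in ESCs (65.0%), where genes were dense at 13.4 per Mb, and from 12.2 to 22.2 Mb in NPCs (47.0%). The median score was 0.0308 in ESCs, rank 3 of the 19 autosomes, and 0.0405 in NPCs. Of the ESC bases 42.6% were shared, the lowest of the 4 chromosomes, and of the NPC bases 69.3%, above chromosome 16. Its median NPC NAD was 101 kb long, rank 19 of the autosomes. Its median ESC NAD of 300.6 kb ranked 1. Chromosomes 1, 2, 10, 11, 13 and 14 had ESC medians from 299.8 to 300.05 kb, so that rank rests on differences under 1 bin.

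The longest ESC NAD of chromosome 19, from 29499267 to 32199498 (2.70 Mb), was shared over 36.9% and held 15 genes of the RNAseq tables. Among them were Gldc, the decarboxylase of glycine cleavage, Uhrf2, a reader of modified chromatin, Ranbp6 and Cstf2t, a polyadenylation factor. In NPCs the longest, from 38899458 to 40199471 (1.30 Mb), held Hells, a chromatin remodeller needed for DNA methylation, and the Cyp2c group of cytochrome P450 genes. The highest scores lay at Bbip1 and Shoc2 in ESCs (0.0851, from 53899937 to 54000295) and at Rfx3, a transcription factor of ciliated cells, in NPCs (0.121, from 27799904 to 28000085). The NPC NAD at Bbip1 and Shoc2 scored 0.0801, rank 2 of the chromosome, and stood before its longest gap of 5.90 Mb.

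At the centromeric end the first ESC NAD lay at Ppp6r3, from 3499316 to 3599993, and the first NPC NAD at Grk2 and Kdm2a, a histone demethylase, from 4301581 to 4399699. Both cell types had a last NAD with Eif3a, a translation initiation factor, Prdx3, a mitochondrial peroxidase, and Cacul1, which ended 131 kb before the last determined base in ESCs and 132 kb in NPCs. ESCs had their longest gap of 3.60 Mb between NADs at Zdhhc6 and Vti1a and at Shtn1, and the NPC gap ended at a NAD with Rab11fip2. The longest ESC NAD without NPC overlap, from 33800290 to 34399487, held Acta2, smooth muscle actin, Stambpl1 and Fas, a death receptor. Its NPC equivalent, from 18199544 to 18300572, held no gene of the tables.

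Chromosome 18 was covered from its start, and coverage thinned toward the telomere. Its 5 parts were covered over 45.4%, 65.9%, 44.2%, 28.9% and 28.8% in ESCs and 35.8%, 49.0%, 27.0%, 16.3% and 11.8% in NPCs. The fullest window of 10 Mb lay from 21.4 to 31.4 Mb in ESCs (80.0%) and from 21.9 to 31.9 Mb in NPCs (62.0%). Of the NPC bases 80.7% were shared, the highest share of the 4 chromosomes, against 53.0% of the ESC bases, and 32 of the 59 NPC NADs lay wholly inside ESC NADs. The median score was 0.0288 among ESC NADs and 0.0393 among NPC NADs. NADs of 1 bin numbered 13 of 64 in ESCs and 26 of 59 in NPCs.

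The longest NADs of chromosome 18 overlapped each other and no protein-coding gene. The ESC NAD ran from 25999149 to 28600364 (2.60 Mb) and the NPC NAD from 26499771 to 29199946 (2.70 Mb), and 80.8% and 85.2% of them were shared. The highest ESC score, 0.0921 from 10699994 to 10801099, lay at Mib1, a ubiquitin ligase of Notch ligands, and Abhd3. The highest NPC score, 0.0984 from 77099777 to 77199940, lay at St8sia5, a ganglioside enzyme, and Pias2. The lowest score of the whole ESC list, 0.00119, belonged to a NAD from 46699870 to 47099759, and the NPC NAD at the same place scored 0.0231.

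In ESCs a NAD began 1.23 kb after the first determined base of chromosome 18, from 3001229 to 3800028, with Bambi, an inhibitory pseudoreceptor of TGF-beta signals, Cul2, Crem and Vmn1r238. NPCs had a NAD inside it, from 3399757 to 3600249 at Bambi. At the other end the last NADs of ESCs and NPCs, with Tmx3 and Gm45871, ended 2.58 and 2.65 kb before the last determined base. The longest ESC NAD of the 4 chromosomes without NPC overlap lay here, from 85200032 to 87099823 (1.90 Mb), and held the synaptic genes Cbln2 and Neto1. It fell in the longest NPC gap, 4.10 Mb between a NAD at Zfp407 and one with Rttn, Socs6 and Cd226, and 48.8% of that gap was covered in ESCs. The longest ESC gap of the chromosome, 3.40 Mb from 80899027 to 84300305, followed a NAD within Atp9b. An NPC NAD from 33599526 to 33699925, the longest there without ESC overlap, held no gene of the tables.

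Most NADs of the 4 chromosomes met a NAD of the other cell type, and the bases held by 1 cell type alone came mainly from NADs that differed in extent. In ESCs 175 of 253 (69.2%) overlapped an NPC NAD by at least 1 base, and in NPCs 172 of 203 (84.7%) overlapped an ESC NAD, beside 68.6% of all ESC NADs and 77.3% of all NPC NADs. By chromosome 54, 43, 50 and 28 of the ESC NADs on chromosomes 12, 16, 18 and 19 overlapped, and 51, 38, 52 and 31 of the NPC NADs. Shared bases came to 71.4 Mb, or 54.0% of the ESC and 70.0% of the NPC bases. Of the 60.9 Mb found in ESCs alone 69.4% lay in NADs that overlapped, and of the 30.6 Mb found in NPCs alone 85.7% did. NADs without overlap were short, with a median of 100.4 kb against 400.2 kb in ESCs and 99.7 against 299 kb in NPCs. Among NADs of 10 bins or more, 37 of 38 in ESCs and 30 of 31 in NPCs overlapped. A long NAD meets another by 1 base more easily than a short one, so both contrasts by length were partly set beforehand. For NADs of 1 bin, 2 to 9 bins and 10 bins or more, the shared bases were 47.7%, 48.3% and 59.6% in ESCs. In NPCs they were 67.9%, 73.7% and 67.8%.

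In 112 pairs a NAD of each cell type met the other and no further one. Scores of the paired NADs were positively related, with Spearman's correlations of 0.534, 0.762, 0.538 and 0.583 on chromosomes 12 (n = 31), 16 (n = 30), 18 (n = 34) and 19 (n = 17), described over pairs that share a genome position. The ESC NAD was longer by over 50 kb in 55 pairs, the NPC NAD in 27, and 30 lay within 50 kb of each other. Both borders were identical in 14 pairs, and 88 borders in all were the same, 17.4% of the ESC and 21.7% of the NPC borders. Of the 5 highest scores on each chromosome, 16 of 20 in ESCs and 19 of 20 in NPCs belonged to NADs that overlapped.

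Genes of the NADs were read in RNAseq as RPKM, reads scaled to gene length and to the reads of the sample. ESC replicate 3 stood apart, with an RPKM sum of 141243 against 105011 and 106892 in the other ESC samples. The total counts of called NAD genes are given below with and without this replicate, and all other counts with it only. The markers of both cell types were read first. The filter kept genes with at least 1 RPKM in at least 3 of 6 samples. A gene under 1 RPKM in each sample of 1 cell type passed through the other alone, which fixed its direction beforehand. All 8 ESC markers fell in NPCs, among them Pou5f1, from 130.0, 136 and 202 RPKM to 0.0558, 0.0386 and 0.0651, with no overlap between the groups. Only Sox2 and Klf4 reached 1 RPKM in NPCs, so the filter fixed the direction of the others. Of 5 radial glia markers tested Pax6, Nes and Hes5 rose, and Sox1 and Vim were not called. Pax6, Hes5 and Sox1 were under 1 RPKM in each ESC sample, so the filter fixed their direction. Fabp7, which was not tested, had 0, 0.00831 and 0 RPKM in ESCs and 0.864, 1.39 and 1.07 in NPCs. Nes, an intermediate filament of neural progenitors, went from 3.79, 3.25 and 3.33 RPKM to 29.8, 32.7 and 29.4. In the neuron list Stmn2 fell and Tubb3 was not called, while the 3 untested markers were higher in each NPC sample than in each ESC sample: Dcx had 0 RPKM in all ESC samples and 1.05, 0.821 and 0.874 in NPCs, Elavl3 had means of 0.0250 and 0.826, and Map2 of 0.0133 and 0.147. In the neural crest list Foxd3, the 1 tested, had 7.65, 8.14 and 7.16 RPKM in ESCs and 0.871, 0.805 and 0.813 in NPCs. Like Stmn2, Foxd3 passed the filter through the ESC samples alone, so only a fall was open to it. Of the untested members of this list Tfap2a was lower in each NPC sample, with means of 0.565 RPKM in ESCs and 0.102 in NPCs. Sox10 and Tfap2b were higher in each, with means of 0.00533 and 0.0848 and of 0 and 0.178. Some markers of other lineages were also higher in the NPC samples. Gata4, Gata6, Sox17 and Foxa2, of the mesoderm and endoderm list, were under 1 RPKM in each ESC sample. They passed the filter through the NPC samples alone, so only a rise was open to them. Gata6 was most abundant, with means of 0.00454 RPKM in ESCs and 6.69 in NPCs. T, which was not tested, went the other way, from 0.964, 1.04 and 0.869 RPKM in ESCs to 0.0164, 0.00909 and 0.0115 in NPCs, and Afp was near 0 in both. That list summed to 1.06, 1.16 and 0.953 RPKM in ESCs and 14.6, 16.0 and 15.6 in NPCs. The 3 fibroblast markers also passed the filter through the NPC samples alone and were higher in each of them. Their summed levels were 0.0627, 0.0692 and 0.0429 RPKM in ESCs and 45.4, 49.4 and 48.9 in NPCs, with Col1a1 most abundant.

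Of 2482 genes on the 4 chromosomes 855 (34.4%) had their transcription start in a NAD, 411 in NADs of both cell types, 343 of ESCs only and 101 of NPCs only. Of these, 75.3% had a mean under 1 RPKM in ESCs and 71.6% in NPCs, beside 66.2% and 61.8% of the genes outside NADs on the same chromosomes. The filter on low values passed 257 of them, of which 40 (15.6%) were higher in NPCs and 16 (6.23%) lower, beside 16.6% and 12.1% of all 7907 genes tested (limma, adjusted p and a difference of at least 1 on the log2 scale). Without ESC replicate 3 the counts were 41 and 14. They were 62 and 29 with 0.1 rather than 1 added to RPKM before the log, and 27 and 9 without NADs below the median score. Among 661 tested genes of the same chromosomes outside NADs 104 were higher and 77 lower. The median difference was 0.10 on the log2 scale for NAD genes and 0.02 for all tested genes. Fewer cells of a type and less RNA per cell cannot be told apart in these samples.

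Genes in NADs of ESCs alone gave the largest rise. Twist1, a transcription factor of mesenchyme, had 0.218, 0.234 and 0.135 RPKM in ESCs and 21.7, 27.2 and 26.0 in NPCs, a difference of 4.44 ± 0.11 (log2, SE, n = 3 each; adjusted p = 2.15e-07). All NPC samples lay above all ESC samples. Fstl1, a secreted glycoprotein on chromosome 16, went from 0.948, 0.961 and 0.816 RPKM to 10.2, 9.41 and 9.70, a difference of 2.50 ± 0.08, again without overlap. Acta2 on chromosome 19 had 0.0103, 0.00624 and 0.00228 RPKM in ESCs and 2.76, 3.10 and 3.76 in NPCs (2.06 ± 0.09). These 3 genes passed the filter through the NPC samples alone. They are also expressed in mesenchymal cells, whose markers in the fibroblast list were higher in each NPC sample. The part of such cells in the result was not tested. Syne2 on chromosome 12 rose by 1.45, Dsc2, a desmosomal cadherin on chromosome 18, by 1.78 and App, the amyloid precursor, by 1.30. These genes were also under 1 RPKM in each ESC sample, so only a rise was open to them.

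In the same class 6 of 91 tested genes fell (6.59%) and 18 rose (19.8%), beside 12.1% and 16.6% of all tested genes. Psat1, an enzyme of serine synthesis on chromosome 19, had 14.0, 13.8 and 14.1 RPKM in ESCs and 2.17, 2.34 and 2.59 in NPCs (-2.15 ± 0.08, adjusted p = 1.27e-06), and Gldc, which breaks down glycine, had a difference of -1.63 ± 0.13. Rrn3, the initiation factor that recruits RNA polymerase I to rRNA genes, had 9.68, 9.85 and 6.94 RPKM in ESCs and 3.37, 3.18 and 3.26 in NPCs (-1.19 ± 0.14, adjusted p = 0.000298). The groups did not overlap. Rrn3 started in the ESC NAD of chromosome 16 with the lowest score there. Diaph1, an actin nucleator on chromosome 18, had a difference of -1.18 ± 0.08. Gldc and Diaph1 were under 1 RPKM in each NPC sample. They passed the filter through the ESC samples alone, so only a fall was open to them.

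In NADs of both cell types the largest fall was at Rpl10l, a retrocopy of a ribosomal protein gene, with 93.7, 91.4 and 158 RPKM in ESCs and 0.0649, 0 and 0 in NPCs (-6.77 ± 0.22, adjusted p = 6.16e-07). Reads of such a copy, as of Cstf2t, may be counted from the parent gene, so its level is uncertain. Arl14epl on chromosome 18 went from 6.94, 6.92 and 6.80 RPKM to 0.00403, 0.00445 and 0 (-2.98 ± 0.05). It lay in the ESC NAD with the lowest score of the list. Rpl10l and Arl14epl were under 1 RPKM in each NPC sample, so only a fall was open to them. Hells differed by -1.17 ± 0.21. Among rises in this class Fgfbp3, a carrier of fibroblast growth factors on chromosome 19, had 0.128, 0.187 and 0.393 RPKM in ESCs and 7.76, 6.87 and 10.2 in NPCs (2.90 ± 0.15), and Cebpd, a transcription factor on chromosome 16, had 0.682, 0.459 and 0.538 and then 7.78, 11.8 and 11.9 (2.86 ± 0.17). Bambi rose by 2.38 ± 0.11, Mib1 by 1.26 ± 0.18 and Uhrf2 by 1.15 ± 0.08. Fgfbp3, Cebpd and Uhrf2 were under 1 RPKM in each ESC sample, so only a rise was open to them.

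Some neighbours moved in opposite directions within a NAD. In the longest ESC NAD Prpf39 rose by 1.61 ± 0.13 and Fkbp3, a nuclear prolyl isomerase, had a difference of -1.01 ± 0.15. That call was lost without ESC replicate 3 (-0.85), without NPC replicate 1 (-0.98) and without NPC replicate 3 (-0.99). In the last ESC NAD of chromosome 16 Ttc3 rose by 1.69 ± 0.14 and Pigp, of glycolipid anchor synthesis, had a difference of -1.42 ± 0.34. Each of these pairs overlaps on opposite strands, and whether reads, from stranded libraries per the methods, were counted by strand is not stated. Kdm2a had a difference of 0.91 ± 0.20 and was not called, but was without ESC replicate 1 (1.02) or without ESC replicate 2 (1.03). In NADs of NPCs alone 1 of 18 tested genes was higher (5.56%) and 0 were lower, beside 16.6% and 12.1% of all tested genes. That gene, Fzd8, a Wnt receptor, had 1.43, 1.48 and 1.10 RPKM in ESCs and 6.92, 9.08 and 9.48 in NPCs (2.02 ± 0.13).

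Several gene families in clusters lay in NADs without passing the expression filter, and their shares stand beside the 34.4% of all genes of these chromosomes in a NAD. Of those 855 genes 343 lay in NADs of ESCs only and 101 in NADs of NPCs only. Of 102 olfactory receptor genes 55 (53.9%) started in a NAD, 10 on chromosome 16 and 45 on chromosome 19, and all 55 were under 1 RPKM in both cell types. Of 57 protocadherins 26 (45.6%) lay in NADs, 17 of them in ESCs only, and the level of single members is uncertain because clustered protocadherins share exons. The 17 keratin-associated protein genes in a NAD, of 24 (70.8%), lay in NADs of ESCs only. Of 19 Ms4a genes, which encode membrane proteins of blood cells, 17 (89.5%) lay in NADs, 5 in both cell types and 12 in ESCs only. Cytochrome P450 genes had 15 of 20 (75%) in NADs, 9 in both and 6 in NPCs only. Of the other families 1 of 24 serpin genes (4.17%), Serpind1, lay in a NAD, and the single vomeronasal gene, Vmn1r238, did. No member of these 7 lists in a NAD passed the filter.

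Neural and developmental lists had few tested members in NADs, and their shares stand beside the same 34.4% and the same split by cell type. Of 31 neural transcription factors 6 (19.4%) lay in NADs, and the tested pair, Sp8 (0.89 ± 0.08) and Six4 (-0.56 ± 0.23), was not called. Of 22 genes of neuronal adhesion and axon guidance 8 (36.4%) lay in NADs, and the 1 tested, Sema4g, had a difference of 1.96 ± 0.10. Of 21 genes of channels, receptors and synapses 6 (28.6%) did, with App as the 1 tested. Desmosomal cadherins had 7 of 9 (77.8%) in NADs, 6 of them in ESCs only, with Dsc2 as the 1 tested. Sema4g, App, Dsc2 and Sp8 were under 1 RPKM in each ESC sample and passed the filter through the NPC samples alone. Only a rise was open to them, so nothing is concluded on their lists. The neuronal cadherin Cdh2 lay in a NAD of NPCs only and did not pass the filter. Among 25 zinc finger Zfp genes 9 (36.0%) lay in NADs and 4 were tested: Zfp397 rose from 3.52, 3.15 and 1.497 RPKM to 11.6, 11.2 and 11.2 (1.77 ± 0.22), and Zfp35, Zfp91 and Zfp24 were not called. Of 12 pluripotency and early embryo genes Morc1 alone (8.33%) started in a NAD, and it did not pass the filter.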

How the data were processed

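For each cell type the NAD list rests on 2 experiments with a nucleolar and a control fusion in each, and RNAseq had 3 samples. The authors aligned DamID reads to mm10 with Bowtie2 2.3.4.3, normalized them with the damidseq pipeline, called peaks with find_peaks and kept those common to both replicates. The deposited score is 1 value per NAD. The authors' tracks are log2 ratios, while the file does not state the score's scale or its joining over replicates. The deposited RNAseq tables hold RPKM per sample. The methods and the labels name different RNAseq tools (the labels Bowtie2 and Subread 1.4.6-p4), and the annotation and the strand setting at counting are not stated, although the methods name a stranded library kit. No other per-sample column was left out (0).

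NAD starts count from 0 and are printed 1 higher. Positions were set on GRCm38, with genes from GENCODE M21 and RefSeq. A two-sided exact permutation test set the rRNA gene chromosomes against the other 15 autosomes. It used the difference of means over all 3876 choices and doubled the p of the smaller tail. Benjamini-Hochberg adjustment ran over 17 measures. Expression was tested with limma 3.58.1 (lmFit, eBayes with trend) in R 4.3.3 on log2(RPKM + 1), computed here on the log2 scale, for genes with at least 1 RPKM in at least 3 of 6 samples, and called at an adjusted p of 0.05 and a difference of 1. Other steps used Python 3.11.15, numpy 2.4.6, pandas 2.3.3 and scipy 1.17.1. Both tests were checked on simulated data.

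RNAseq read totals were not used here. From the steps between low RPKM values, reads relative to ESC replicate 1 came to 0.990 in ESC replicate 2, 0.904 in ESC replicate 3, and 0.886, 0.801 and 0.949 in the NPC samples in order. These ratios are uncertain. The commonest step held 13.7% and 11.2% of the low genes in ESC replicates 2 and 3, and 7.88%, 7.37% and 7.02% in the NPC samples. NADs were named by rule: the longest, the highest scoring, the first, the last, those beside the longest gap and the longest without overlap, per chromosome and cell type. Genes were named by level in these NADs, by the largest called rise and fall per class, and from the lists; some genes under this rule are not reported here. The members and lists were chosen with earlier results of these data known, although the rule for the members uses the chromosome alone. NADs of lowest score and genes in gaps were named after their values were seen.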

Additional observations from a re-analysis of the deposited data

How the results depend on the processing

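Of 146 alternatives for the chromosome measures 132 kept their direction, 14 turned and 0 passed the threshold after adjustment, while 7 had an unadjusted p under 0.05. These 7 held ESC coverage without chromosome 16 and ESC length without chromosome 12. They also held the centromere-proximal excess without chromosome 18 in ESCs and NPCs, and without chromosome 8 in NPCs. The rest were NPC gene density without NADs below the median score and without chromosome 16. When NADs below the median score were left out, the differences between rRNA gene chromosomes and other autosomes turned to -0.000314 for the ESC score, 2.63 and 1.36 points for the centromere-proximal excess in ESCs and NPCs, and 0.00316 GATC per kb in ESCs. Merging NADs up to 100 kb apart gave an NPC GATC difference of -0.000114. Without chromosome 8 NPC coverage differed by 1.85 points and ESC sharing by 0.0857. Without chromosomes 11 and 15 the ESC gap differed by 0.414 kb and the NPC GATC density by -0.00180. Without chromosome 12 the ESC gap differed by 9.49 kb and the ESC GATC density by 0.00563. Without chromosome 19 the ESC score differed by -0.000249, ESC sharing by 0.683 points and the NPC GATC density by -0.0350. Sizes moved too: over the alternatives the difference lay between 0.150 and 7.98 points for ESC coverage, 14.3 and 57.3 kb for ESC length, -521.8 and 9.49 kb for the ESC gap, -72.4 and -7.74 kb for NPC length, 3.96 and 112.6 kb for the NPC gap, -9.62 and 0.683 points for ESC sharing, 2.21 and 9.87 points for NPC sharing, -15.5 and 2.63 points for the centromere-proximal excess in ESCs, -21.6 and 1.36 in NPCs, 0.876 and 2.11 genes per Mb for gene density in ESCs, 1.70 and 2.82 in NPCs, and -9.85 and -2.47 points for the coverage change. The cause was not tested.

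Of 28 alternatives for the counts of NAD genes higher or lower in NPCs, 23 lay within 1.5 times. A pseudocount of 0.1 gave 62 higher and 29 lower, and the adjusted p alone, which drops the fold, gave 101 and 70. Leaving out NADs below the median score leaves fewer genes and gave 27 and 9. Leaving out 1 sample gave 39 to 43 higher and 14 to 18 lower. The replicate number as a block gave 40 and 16, and the deviations of samples with the same number had r of 0.114, -0.0809 and 0.0335 across genes, which are not independent replicates, while samples of different number had r between -0.0876 and 0.0874. The lists give no reads, so the depth behind a NAD is unknown.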
